A study of Homo sapiens with 23 samples.

Results

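Integrins are the receptors with which epithelial cells hold the matrix beneath them, and the RNA of 10 integrin genes was followed here across 5 lines of HCT116 cells. The genes are ITGA2, ITGA3, ITGA5, ITGA6, ITGAV, ITGB1, ITGB4, ITGB5, ITGB6 and ITGB8, chosen by name as the subunits best known from epithelia and matched by Ensembl identifier. They and the gene lists below were chosen with earlier results of these data known. Their counts beside those of all genes are therefore descriptions. All 10 were found among the 57875 genes listed for each sample, and all 10 passed the filter on low counts that left 22842 genes to test. They are 10 of the 26 integrin subunits listed.

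HCT116 is a human colorectal carcinoma cell line. The 5 lines were wild-type cells (WT), with no edited gene, and lines labelled AGO1 knockout, AGO2 knockout, AGO1/2 knockout and AGO1/2/3 knockout. The knockout lines were edited from HCT116 cells with CRISPR. The paper checked them by DNA sequencing and found the named Argonaute proteins absent by Western blot. AGO4 was not targeted in any line, and all lines grew in the same serum-containing medium without other treatment. RNA was measured by RNAseq in 3 biological replicates of each line, 15 samples in all. Each genotype is 1 line, so that an effect of the genotype and a property of the line cannot be told apart, and the p-values measure the spread between cultures of a line. Argonaute proteins carry microRNAs (miRNAs) to partly matching stretches of mRNA, where they lower the stability or translation of the message.

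An integrin is a dimer of 1 alpha and 1 beta chain, and the pair decides the ligand. Beta 1 pairs with many alpha chains, among them alpha 2 (a collagen receptor), alpha 3 and alpha 6 (laminin receptors) and alpha 5 (a fibronectin receptor). Beta 4 pairs with alpha 6 only and anchors basal epithelial cells to laminin through hemidesmosomes, which are tied to keratin filaments rather than to actin. Alpha V pairs with beta 1, beta 5, beta 6 and beta 8 and binds proteins that carry the short motif arginine-glycine-aspartate (RGD), and with beta 6 or beta 8 it binds latent TGF-beta. 

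Depth was 27709971 to 45271146 counts assigned to genes per sample, with a median of 30701840, and the AGO2 knockout samples were among the deepest, with 40419152 to 45271146 counts. The AGO2 knockout files were made in another quantification mode by their headers, and this cannot be told apart from the genotype. Levels are given as CPM, the counts of a gene per 1000000 counts of the sample, with totals scaled by edgeR's TMM factors. AGO1 RNA fell from 131 ± 20.4 CPM in wild-type cells (SD, n = 3) to 32.4 to 36.6 CPM in the 3 lines labelled as lacking it, and AGO3 RNA fell from 112 ± 16 to 51.8 ± 5.68 CPM in AGO1/2/3 knockout cells. AGO2 RNA was 407 ± 45.6 CPM in wild-type cells, 286 ± 26.3 in AGO2 knockout, 339 ± 22.8 in AGO1/2 knockout and 538 ± 19.9 in AGO1/2/3 knockout cells. The RNA therefore does not check the loss of AGO2 protein in any line, which rests on the Western blots of the paper. AGO4 RNA was 25.1 ± 3.34 CPM in wild-type, 20.3 ± 5.57 in AGO1 knockout and 15.4 ± 4.79 in AGO2 knockout cells. It was 29.8 ± 6.80 in AGO1/2 knockout and 61.4 ± 7.06 CPM in AGO1/2/3 knockout cells, and its part in the integrin results was not tested. Wild-type replicate 2 stood farthest from its group, with a median distance from the mean of the other 2 samples of 0.272 on the log2 scale over 16083 genes, against 0.079 to 0.217 for the other 14 samples. The values that moved most without it are given beside the results.

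All 6 epithelial markers examined (EPCAM, CDH1, KRT8, KRT18, KRT19 and CLDN7) were at or above 1 CPM in every line, with summed levels of 1806 to 1996 CPM in the wild-type samples and 1643 to 2128 CPM in the AGO1/2/3 knockout samples. The adhesion proteins among them fell while the keratins did not. CDH1 (E-cadherin) was 97.7 ± 31.9 CPM in wild-type and 8.57 ± 0.74 CPM in AGO1/2/3 knockout cells, EPCAM was 213 ± 8.59 and 63.6 ± 1.51 CPM, and CLDN7 (a claudin of tight junctions) was 110 ± 41.8 and 11.2 ± 2.45 CPM (SD, n = 3; all 3 called lower). KRT8 was called higher, at 852 ± 126 CPM against 642 ± 46.4. In AGO1/2 knockout cells the same 3 adhesion genes were called lower and KRT8 and KRT19 were called higher. The part of this shift in the integrin results was not tested. Of 5 intestinal markers 1, CDX2, reached 1 CPM, and CDX1 had 0 counts in every sample, so the intestinal origin rests on the label. Summed levels of 4 fibroblast markers stayed at or under 1.48 CPM and those of 4 endothelial markers at or under 3.94 CPM in every sample. Summed immune markers were 2.32 to 5.67 CPM in the wild-type samples and 8.51 to 11.1 CPM in the AGO1/2 knockout samples, with CD68 at 3.30 and 8.19 CPM, while CD3E reached 1 count and CD79A 5 counts at most. In bulk RNA, fewer cells with a transcript and less of it per cell cannot be told apart.

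The miRNAs whose levels the study measured in these cells by qPCR are shown because AGO proteins act through them. Their mature sequences (RefSeq, GRCh38.p14) are printed 5′ to 3′ with the seed, bases 2 to 8, in capitals, and the pair of let-7 miRNAs shares a seed.
hsa-let-7a-5p: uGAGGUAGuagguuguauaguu
hsa-let-7f-5p: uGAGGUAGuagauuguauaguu
hsa-miR-21-5p: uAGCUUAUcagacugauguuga
hsa-miR-27a-3p: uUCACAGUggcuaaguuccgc
hsa-miR-29a-3p: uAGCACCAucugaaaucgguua
hsa-miR-125b-5p: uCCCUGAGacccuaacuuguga

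The 3′ untranslated region of each member's canonical transcript was searched, on the sense strand, for the 7 letters complementary to each seed. ITGB8, ITGA2, ITGA5, ITGB1 and ITGB5 held 9 matches between them, and ITGA3, ITGA6, ITGAV, ITGB4 and ITGB6 held none. ITGB8 and ITGA2, whose RNA moved farthest and in opposite directions in AGO1/2/3 knockout cells, held 3 each. Their 6 matches are printed as 25 bases of hg38 on the strand of the gene, 5′ to 3′, with the match in capitals. Both genes lie on the plus strand.
ITGB8, let-7a/f, chr7:20411594-20411618: aatatcatgCTACCTCttgaatctt
ITGB8, miR-21, chr7:20411132-20411156: atcttagaaATAAGCTttttttttt
ITGB8, miR-27a, chr7:20412261-20412285: taattcagtACTGTGAgtcacttgt
ITGA2, miR-21, chr5:53091782-53091806: gtaagaaaaATAAGCTcgagtgaat
ITGA2, miR-27a, chr5:53093961-53093985: cctattaaaACTGTGAagagtaaaa
ITGA2, miR-29a, chr5:53092680-53092704: aacagctagTGGTGCTggtgtgtac

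A match to let-7 stood in 1 of the 10 members and in 11.2% of 14757 coding genes tested, a match to miR-21 in 2 members and 9.65% of genes, and a match to miR-27a in 3 members and 17.5% of genes. A match to miR-29a stood in 2 members and 15.9% of genes, and a match to miR-125b in 1 member and 16.5% of genes. The searched regions of ITGB8 (5757 bases) and ITGA2 (4180 bases) are long against the median of 1318 bases, and longer regions hold more matches. A match is a description of letters and not a site shown to be bound.

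In AGO1/2/3 knockout cells most of these integrins rose together, while the collagen-binding chain ITGA2 fell. With p-values from the edgeR quasi-likelihood test, adjusted by Benjamini-Hochberg over all genes tested, 7 of the 10 members were called higher (adjusted p at or under 0.05) and 1 was called lower, where 20.3% of all genes tested were called higher and 19.8% lower. At least 2-fold changes were called for 3 members upward (ITGB4, ITGB5 and ITGB8) and 1 downward, against 6.96% and 8.97% of all genes. The median log2 fold change of the 10 was 0.77, against -0.01 over all genes. For 8 members all 3 AGO1/2/3 knockout samples lay above all 3 wild-type samples, and for 1 all lay below, where 26.3% and 23.8% of all genes did so. The 8 calls held under each of 22 alternative settings.

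With fewer AGO genes lost the pattern was different. In AGO1/2 knockout cells 2 members (ITGB4 and ITGB8) were called higher and 1 (ITGA2) lower, against 8.37% and 8.35% of all genes, and the median of the 10 was 0.34 against 0.01 over all genes. In AGO2 knockout cells 0 were called higher and 4 (ITGA2, ITGA3, ITGA5 and ITGB4) lower, against 8.55% and 10.8% of all genes, with a median of -0.39 against -0.02. In AGO1 knockout cells 0 were called higher and 1 (ITGB8) lower, against 3.17% and 5.5% of all genes, with a median of -0.42 against -0.01. All 3 samples lay above all wild-type samples for 0 members in AGO1 knockout, 0 in AGO2 knockout and 3 in AGO1/2 knockout cells, and below them for 3, 6 and 1 members. Of all genes tested, 10.2%, 18.5% and 15.5% lay above in these lines and 12.9%, 18.6% and 14.3% lay below. These comparisons share the wild-type samples. The 3 calls in AGO1/2 knockout cells and the call of ITGB8 in AGO1 knockout cells also held under all 22 settings, but those in AGO2 knockout cells did not, except that of ITGA3. Without AGO2 knockout replicate 2 or replicate 3, ITGA3 was the only member called there, and without wild-type replicate 2 only ITGA3 and ITGB4 were.

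**Figure D1:**
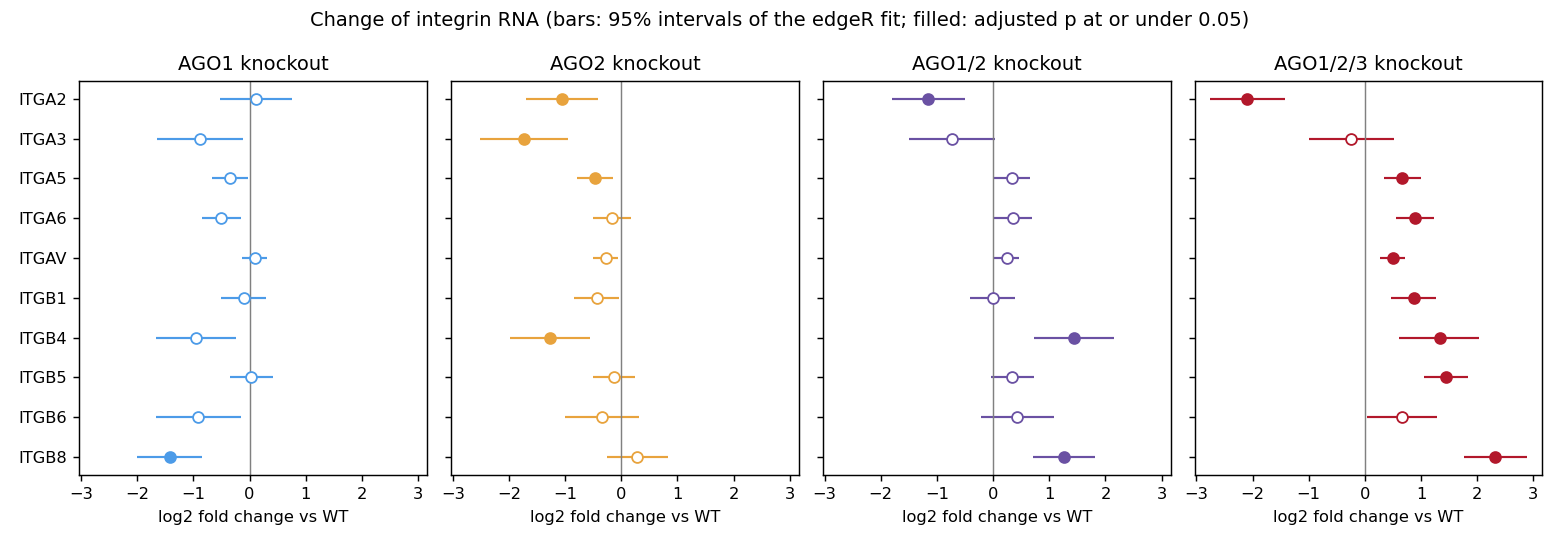
Log2 fold change against wild-type cells for each of the 10 integrin genes in the 4 knockout lines, with 95% intervals from the standard error and a t distribution with 10 degrees of freedom. Filled points passed an adjusted p of 0.05. In AGO1/2/3 knockout cells 7 filled points lie to the right of 0 and ITGA2 lies to the left at -2.09.

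The laminin receptors are described first. ITGB4, the hemidesmosome chain (ENSG00000132470, chr17:75721328-75757818, GENCODE v44 on GRCh38), was at 328, 536 and 493 CPM in the wild-type samples, 121, 202 and 375 CPM in the AGO1 knockout samples and 207, 182 and 173 CPM in the AGO2 knockout samples. It was at 778, 1404 and 1491 CPM in the AGO1/2 knockout samples and 1179, 1164 and 1058 CPM in the AGO1/2/3 knockout samples. The AGO2 knockout samples lay below every wild-type sample and the samples of both combined knockouts lay above, while the AGO1 knockout samples overlapped them. The log2 fold change was -0.96 ± 0.32 (standard error) in AGO1 knockout (adjusted p = 0.0796, edgeR quasi-likelihood test), -1.27 ± 0.32 in AGO2 knockout (adjusted p = 0.0160), 1.44 ± 0.32 in AGO1/2 knockout (adjusted p = 0.00604) and 1.33 ± 0.32 in AGO1/2/3 knockout cells (adjusted p = 0.00389). Under 5 of the 22 settings, DESeq2's Wald test among them, the lower value in AGO1 knockout cells was also called.

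ITGA6, the only partner of ITGB4 (ENSG00000091409, chr2:172427354-172506459), rose less. Its levels were 219.6, 253 and 218 CPM in the wild-type samples, 250.1, 300.5 and 335 CPM in the AGO1/2 knockout samples and 380.2, 432 and 469 CPM in the AGO1/2/3 knockout samples. The AGO1/2/3 knockout samples lay above all 12 others. ITGA6 was 1.86-fold higher there than in wild-type cells (log2 fold change 0.89 ± 0.15, adjusted p = 0.000263, same test), and 0.36 ± 0.15 in AGO1/2 knockout cells did not pass (adjusted p = 0.130). The AGO1 knockout samples, at 128, 171 and 189 CPM, lay below every wild-type sample. That difference of -0.50 ± 0.15 missed the threshold (adjusted p = 0.0544) and passed it under 6 of the 22 settings. AGO2 knockout cells gave 178, 236 and 201 CPM, which overlapped the wild-type samples.

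ITGA3, which pairs with ITGB1 to bind laminins (ENSG00000005884, chr17:50055968-50090481), was uneven among wild-type samples, with 314, 864 and 294 CPM in replicates 1, 2 and 3. It was at 157, 272 and 367 CPM in the AGO1 knockout samples, 169, 137 and 137 CPM in AGO2 knockout, 252, 294 and 344 CPM in AGO1/2 knockout and 415, 412 and 419 CPM in AGO1/2/3 knockout samples. Only the AGO2 knockout samples lay apart from the wild-type samples. They were lower by a log2 fold change of -1.73 ± 0.35 (adjusted p = 0.00561, edgeR quasi-likelihood test), and by -1.07 without wild-type replicate 2. For AGO1/2/3 knockout cells the value was -0.24 ± 0.34 (adjusted p = 0.617), and without wild-type replicate 2 it turned to 0.424 (adjusted p = 0.184).

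ITGB1, the shared partner chain (ENSG00000150093, chr10:32887273-33005792, minus strand), moved in AGO1/2/3 knockout cells. It was at 588, 876 and 559 CPM in the wild-type samples, 456, 720.5 and 709.8 CPM in AGO1 knockout and 464, 540.2 and 487 CPM in AGO2 knockout samples. It was at 639.8, 619.8 and 753 CPM in AGO1/2 knockout and 1223, 1189 and 1282 CPM in AGO1/2/3 knockout samples. The AGO1/2/3 knockout samples lay above all 12 others, 1.82-fold over wild-type cells (log2 fold change 0.87 ± 0.18, adjusted p = 0.00121, same test). The log2 fold changes in the other lines ran from -0.44 to -0.01 and did not pass. ITGB1 holds 1 match to the seed of miR-29a in its searched region.

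ITGA2, the alpha chain of the collagen receptor alpha 2 beta 1 (ENSG00000164171, chr5:52989340-53094779), went the other way. Its levels were 186, 215 and 121 CPM in the wild-type samples, 111, 202 and 254 CPM in AGO1 knockout and 87.5, 93.7 and 70.9 CPM in AGO2 knockout samples. They were 49.2, 83.9 and 102 CPM in AGO1/2 knockout and 44.9, 37.8 and 40.0 CPM in AGO1/2/3 knockout samples. Each line labelled as lacking AGO2 lay below all wild-type samples, and AGO1 knockout overlapped them. The log2 fold change was 0.12 ± 0.29 in AGO1 knockout (adjusted p = 0.853), -1.05 ± 0.29 in AGO2 knockout (adjusted p = 0.0231), -1.15 ± 0.29 in AGO1/2 knockout (adjusted p = 0.0126) and -2.09 ± 0.30 in AGO1/2/3 knockout cells (adjusted p = 4.87e-05, edgeR quasi-likelihood test), where the gene was 4.25-fold lower. ITGA2 holds 3 of the 9 seed matches, and a fall of a gene with such matches is given here as a value only.

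**Figure D2:**
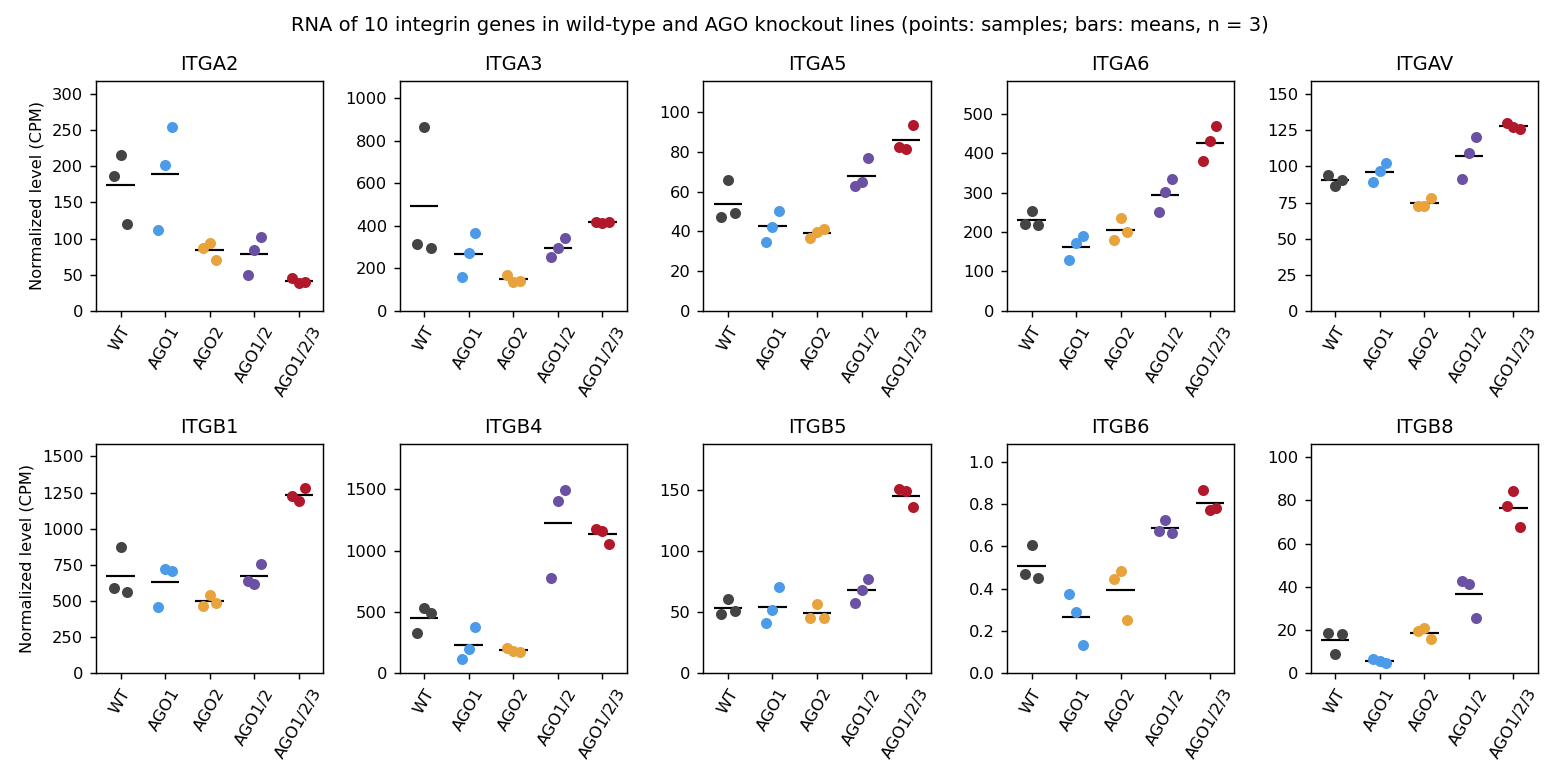
Normalized RNA level (CPM, axes from 0) of each of the 10 integrin genes in the 15 samples, with a bar at the mean of the 3 samples of each line. The AGO1/2/3 knockout samples are the highest for ITGA5, ITGA6, ITGAV, ITGB1, ITGB5, ITGB6 and ITGB8 and the lowest for ITGA2.

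ITGA5, which with ITGB1 forms the main fibronectin receptor (ENSG00000161638, chr12:54395261-54419266, minus strand), was at 47.0, 65.6 and 49.1 CPM in the wild-type samples and at 82.4, 81.4 and 93.4 CPM in the AGO1/2/3 knockout samples. These groups did not overlap, and the log2 fold change was 0.67 ± 0.15 (adjusted p = 0.00177, same test). In AGO2 knockout cells it was at 36.6, 39.5 and 41.0 CPM, below all wild-type samples, by -0.47 ± 0.15 (adjusted p = 0.0382). This call was lost under 6 of the 22 settings, and without wild-type replicate 2 the value was -0.325 (adjusted p = 0.148). AGO1 and AGO1/2 knockout samples, at 34.7 to 50.3 and 62.5 to 76.7 CPM, overlapped the wild-type samples, and neither value passed.

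ITGAV, the alpha chain shared by the RGD receptors (ENSG00000138448, chr2:186590010-186680901), varied least of the 10. It was at 94.2, 86.3 and 90.9 CPM in the wild-type samples, and its line means spanned 0.78 on the log2 scale, against 1.13 to 3.73 for the other members. Its levels in AGO1/2/3 knockout samples were 129.8, 128 and 126 CPM, above all wild-type samples, and it rose by a log2 fold change of 0.50 ± 0.10 (adjusted p = 0.000948, same test). AGO2 knockout samples, at 72.6, 72.9 and 78.4 CPM, lay below all wild-type samples, and the difference of -0.28 ± 0.10 missed the threshold (adjusted p = 0.0625).

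The beta partners of ITGAV differed from one another. ITGB5, whose dimer with ITGAV binds vitronectin (ENSG00000082781, chr3:124761948-124901418, minus strand), was at 48.5, 60.7 and 50.9 CPM in the wild-type samples and at 150.9, 149 and 136 CPM in the AGO1/2/3 knockout samples. The other 3 knockout lines, at 41.1 to 77.2 CPM, all overlapped wild-type cells. ITGB5 was 2.72-fold higher in AGO1/2/3 knockout cells (log2 fold change 1.44 ± 0.17, adjusted p = 8.63e-06, edgeR quasi-likelihood test), and the values of -0.13 to 0.34 in the other lines did not pass.

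ITGB8, whose dimer with ITGAV binds latent TGF-beta (ENSG00000105855, chr7:20330702-20415754), had the widest range of line means, 3.73 on the log2 scale. It was at 18.7, 9.02 and 18.4 CPM in the wild-type samples, 6.75, 5.88 and 4.60 CPM in AGO1 knockout and 19.6, 20.8 and 15.7 CPM in AGO2 knockout samples. It was at 42.9, 41.6 and 25.8 CPM in AGO1/2 knockout and 77.6, 84.5 and 67.6 CPM in AGO1/2/3 knockout samples. AGO1 knockout samples lay below every wild-type sample, AGO1/2 and AGO1/2/3 knockout samples lay above, and AGO2 knockout samples overlapped them. The log2 fold change was -1.42 ± 0.26 in AGO1 knockout (adjusted p = 0.00330), 0.28 ± 0.24 in AGO2 knockout (adjusted p = 0.429), 1.26 ± 0.25 in AGO1/2 knockout (adjusted p = 0.00244) and 2.32 ± 0.25 in AGO1/2/3 knockout cells (adjusted p = 3.44e-06, same test), a 4.99-fold rise. Wild-type replicate 2 was lower than the mean of the other 2 wild-type samples by 1.03 on the log2 scale, and without it the last value was 2.02.

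ITGB6, the other latent TGF-beta receptor chain (ENSG00000115221, chr2:160099667-160200313, minus strand), was near the lower end of detection, with 4 to 34 counts per sample. Its levels were 0.47, 0.61 and 0.45 CPM in the wild-type samples and 0.87, 0.77 and 0.78 CPM in the AGO1/2/3 knockout samples. The groups did not overlap, but the log2 fold change of 0.67 ± 0.28 did not pass (adjusted p = 0.0733, same test), and its 95% interval ran from 0.04 to 1.29.

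The comparison of AGO1/2/3 with AGO1/2 knockout cells gives the change with AGO3 as the further gene lost, in another line. Of the 10 members 4 were called higher (ITGA6, ITGB1, ITGB5 and ITGB8) and 1 lower (ITGA2), against 11.9% and 10.0% of all genes. Of these, 2 upward calls (ITGB5 and ITGB8) and 0 downward calls were at least 2-fold, against 2.96% and 3.62% of all genes. The AGO1/2/3 knockout samples lay above all AGO1/2 knockout samples for 8 members and below them for 1, against 22.0% and 19.6% of all genes. ITGB5 rose by 1.10 ± 0.17 (adjusted p = 0.000286), ITGB8 by 1.06 ± 0.24 (adjusted p = 0.00513), ITGB1 by 0.88 ± 0.18 (adjusted p = 0.00251) and ITGA6 by 0.53 ± 0.15 (adjusted p = 0.0204) on the log2 scale, and ITGA2 changed by -0.94 ± 0.29 (adjusted p = 0.0307, edgeR quasi-likelihood test). ITGB4 did not pass, at -0.11 ± 0.32, with an interval from -0.82 to 0.59. The calls of ITGA2 and ITGA6 were lost when single replicates were left out, with ITGA2 lost without AGO1/2 knockout replicate 2 or 3 or any AGO1/2/3 knockout replicate, and ITGA6 lost without AGO1/2 knockout replicate 1 or 2 or AGO1/2/3 knockout replicate 2 or 3.

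The design also asks whether loss of AGO1 goes with another change in cells that have AGO2 than in cells that lack it. For this, the difference of AGO1/2 from AGO2 knockout was compared with the difference of AGO1 knockout from wild type. The AGO2 knockout files, made in another quantification mode, enter this comparison, and the share of that mode cannot be told apart. The interaction was called above 0 for 7 of the 10 members and below 0 for 0, against 11.5% and 8.26% of all genes, and the median of the 10 was 1.09 against 0.05. ITGB4 changed by -0.96 with AGO2 present and by 2.71 without it, a difference of 3.67 ± 0.46 (adjusted p = 9.43e-05, edgeR quasi-likelihood test). ITGB8 changed by -1.42 and 0.98, a difference of 2.39 ± 0.36 (adjusted p = 0.000357, same test). The sign of the change was opposite for both genes, and also for ITGA3, ITGA5, ITGA6 and ITGB6 among the 7 called. ITGAV was higher with AGO1 loss in both settings. Of the changes with AGO2 present, only that of ITGB8 passed the threshold. The changes without AGO2 were not tested on their own, so the opposite signs are given as values only.

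ITGA3 gave a difference of 1.89 ± 0.49 (adjusted p = 0.0140), and 1.21 without wild-type replicate 2. ITGB6 gave 1.70 ± 0.44 (adjusted p = 0.0153), ITGA5 1.15 ± 0.21 (adjusted p = 0.00153) and ITGA6 1.03 ± 0.22 (adjusted p = 0.00433, same test). ITGAV gave 0.43 ± 0.14 (adjusted p = 0.0433), and this call was kept under 8 of the 22 settings. ITGA2, ITGB1 and ITGB5, at -0.22, 0.54 and 0.44, did not pass.

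**Figure D3:**
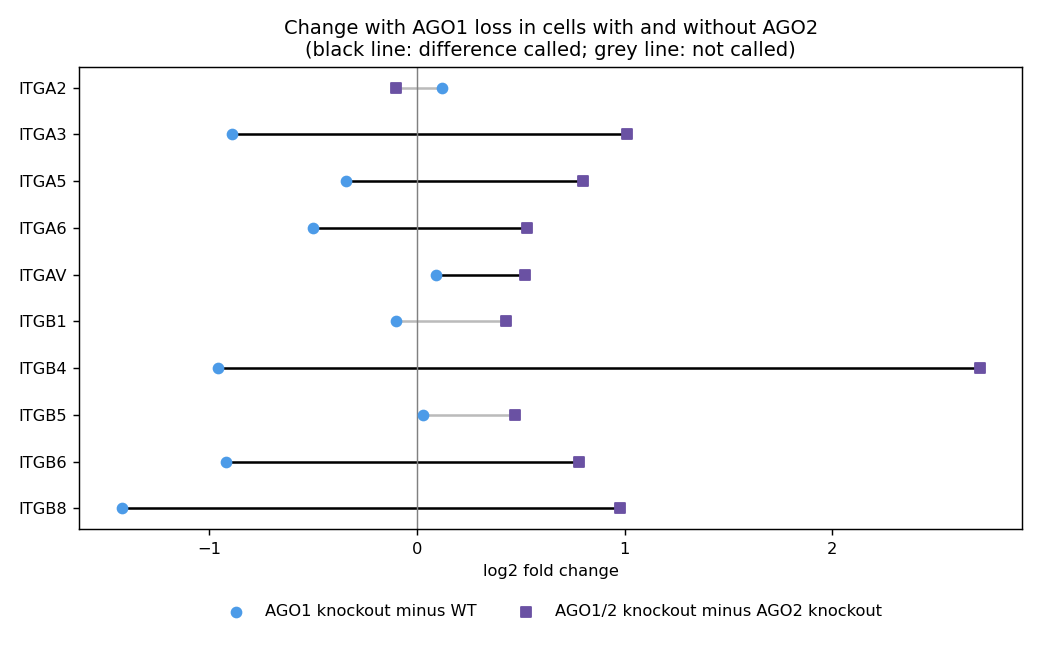
Log2 fold change with AGO1 loss for each integrin gene, as AGO1 knockout minus wild type (circles) and as AGO1/2 knockout minus AGO2 knockout (squares). Black connecting lines mark differences called at an adjusted p of 0.05, and the longest joins -0.96 and 2.71 for ITGB4.

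To compare genes with one another, CPM were divided by the length of the canonical transcript. In wild-type cells ITGB1 led with 181 ± 46.9 CPM per kb (SD, n = 3), then came ITGA3 with 100.4 ± 66.2, ITGB4 with 76.7 ± 18.6, ITGA6 with 39.6 ± 3.40 and ITGA2 with 22.2 ± 6.18 CPM per kb. ITGAV, ITGA5 and ITGB5 followed at 12.9, 12.7 and 12.0 CPM per kb, ITGB8 at 1.71 and ITGB6 at 0.11. The sample ranges of ITGB1 and ITGA3, ITGA3 and ITGB4, ITGAV and ITGA5, and ITGA5 and ITGB5 overlapped, and the other neighbours in this order were apart.

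In AGO1/2/3 knockout cells all neighbours were apart, in the order ITGB1 (329.6 CPM per kb), ITGB4 (192), ITGA3 (85.0), ITGA6 (73.4), ITGB5 (32.7), ITGA5 (20.2), ITGAV (18.1), ITGB8 (8.53), ITGA2 (5.22) and ITGB6 (0.17). ITGA2 thus went from place 5 to place 9, below ITGB8. With the length of all merged exons in place of the canonical transcript, ITGB4 stood above ITGB1 in both lines (66.9 and 46.3 CPM per kb in wild-type cells, and 168 and 84.6 CPM per kb with AGO1/2/3 knockout), because ITGB1 has 3735 bases by the first measure and 14561 by the second. ITGA2 then also stayed above ITGB8 in AGO1/2/3 knockout cells, at 5.18 and 5.05 CPM per kb. The samples of that pair overlapped on this length, so that its order was not resolved.

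**Figure D4:**
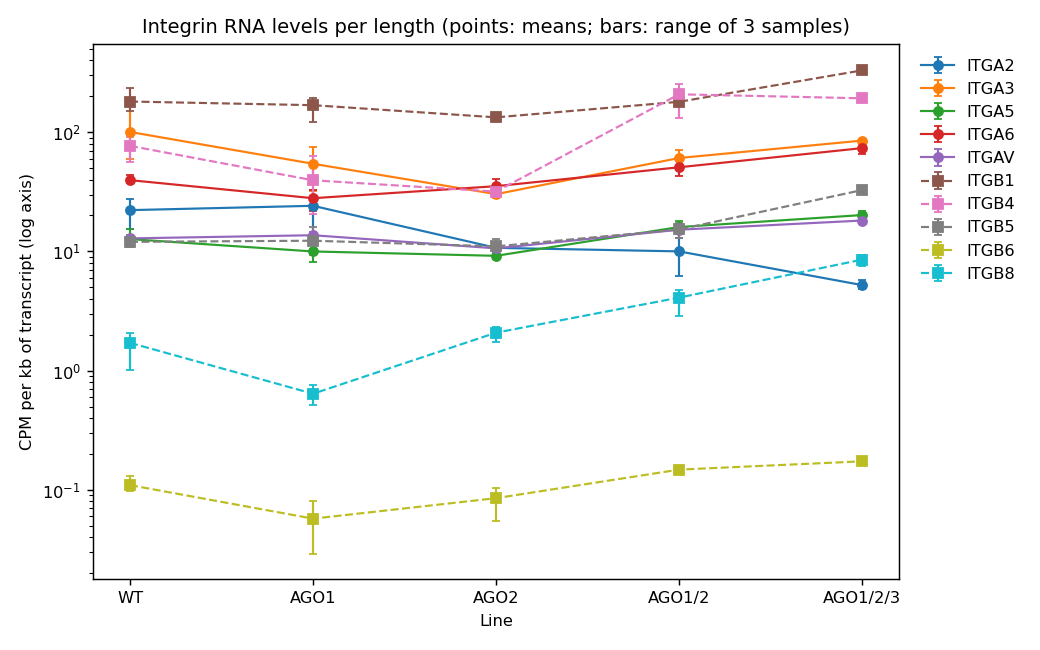
Level per transcript length (CPM per kb, log axis) of the 10 integrin genes in the 5 lines, as means with bars over the range of 3 samples; solid lines are alpha chains and dashed lines beta chains. ITGB4 rises to 192 CPM per kb and ITGA2 falls to 5.22 CPM per kb in AGO1/2/3 knockout cells.

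Since integrins reach the surface as pairs, the log2 ratio of beta to alpha counts was taken within each sample for 9 known dimers. No scaling between samples enters this ratio, but the prior count of 2 added to each gene weighs on low counts, as for ITGB6. With 3 samples against 3 the exact two-sided permutation test cannot go below p = 0.1, so no ratio could pass 0.05. ITGB1 over ITGA2 was 1.66, 2.02 and 2.21 in the wild-type samples and 4.77, 4.97 and 5.00 in the AGO1/2/3 knockout samples, a difference of 2.95 (exact p = 0.1). The AGO2 and AGO1/2 knockout samples were also above all wild-type samples, by 0.60 and 1.19.

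For the hemidesmosome pair, ITGB4 over ITGA6 was 0.58, 1.08 and 1.18 in the wild-type samples, 0.21, -0.37 and -0.22 in AGO2 knockout and 1.64, 2.22 and 2.15 in AGO1/2 knockout samples. Both knockout lines were apart from wild-type cells, by -1.07 and 1.06 (exact p = 0.1 each). In AGO1/2/3 knockout cells the ratio was higher by 0.47, and its samples, at 1.17 to 1.63, overlapped those of wild-type cells (exact p = 0.2).

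ITGB8 over ITGAV differed from wild-type cells by -1.44 in AGO1 knockout, 1.06 in AGO1/2 knockout and 1.88 in AGO1/2/3 knockout cells, each with the samples apart, and by 0.62 in AGO2 knockout cells with the samples overlapping. Without wild-type replicate 2 the difference was 0.75 in the AGO1/2 line and 0.31 in the AGO2 line. ITGB6 over ITGAV was lower with the samples apart in the AGO1 line, by -0.93, and overlapped in the AGO2, AGO1/2 and AGO1/2/3 lines, at -0.12, 0.18 and 0.12. The value in the AGO1 line rests on 12, 8 and 4 ITGB6 counts against 15, 19 and 15 in the wild-type samples. It ran from -1.211 to -0.548 when single samples were left out. ITGB5 over ITGAV was apart from wild-type cells in AGO1/2/3 knockout cells, by 0.95, and in none of the other 3 lines. ITGB1 over ITGA3 was above all wild-type samples in every knockout line, by 0.57 to 1.14, and wild-type replicate 2, at 0.02, lay below the 0.91 and 0.93 of the other wild-type samples. Without that sample the AGO1/2 and AGO1 lines differed by 0.27 and 0.38, and the AGO1/2/3 and AGO2 lines by 0.65 and 0.84. ITGB1 over ITGA5 differed by 0.24 and 0.04 in the AGO1 and AGO2 lines, with the samples overlapping, and by -0.33 and 0.21 in the AGO1/2 and AGO1/2/3 lines, with the samples apart. For ITGB1 over ITGA6 the samples were apart in the AGO1 line, by 0.42, and in the AGO1/2 line, by -0.33, and overlapped in the AGO2 and AGO1/2/3 lines, at -0.24 and 0.01. ITGB1 over ITGAV overlapped in all 4 lines.

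**Figure D5:**
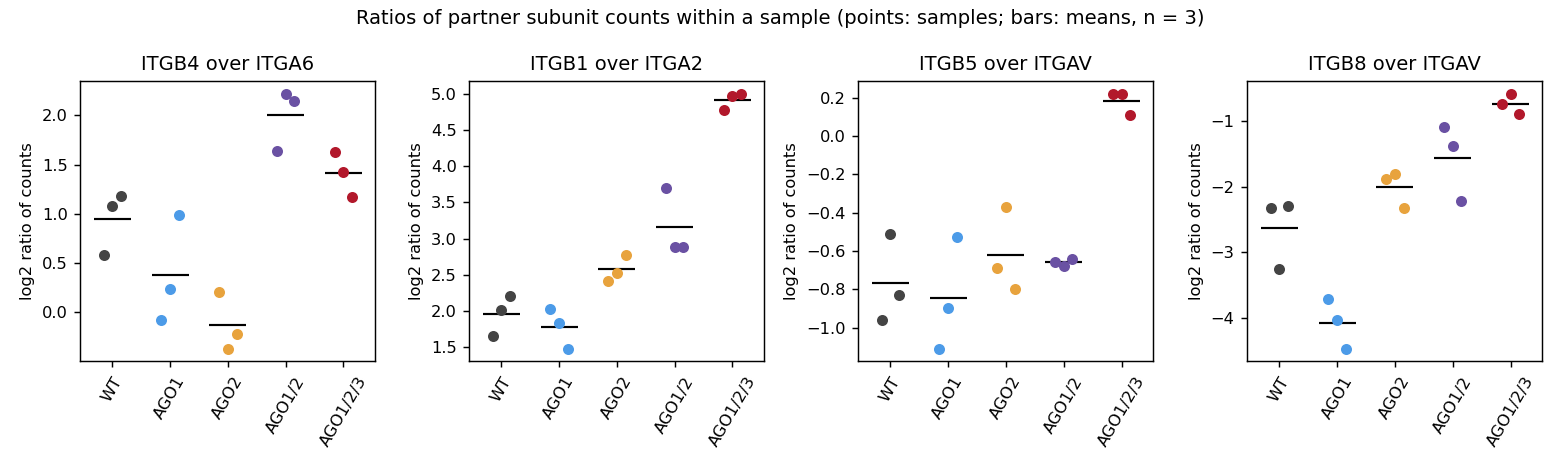
Log2 ratio of beta to alpha chain counts within each sample for 4 dimers, by line, with a bar at the mean of 3 samples. ITGB1 over ITGA2 reaches 4.77 to 5.00 in AGO1/2/3 knockout cells against 1.66 to 2.21 in wild-type cells.

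Of the 16 other integrin subunits, 12 were tested, and in AGO1/2/3 knockout cells 2 were called higher and 3 lower, with a median of 0.01 against -0.01 over all genes, of which 20.3% were called higher and 19.8% lower. ITGA1, another collagen-binding alpha chain, fell from 4.31 ± 0.94 to 1.61 ± 0.10 CPM (log2 fold change -1.42, adjusted p = 3.83e-05, same test) and was also lower in AGO1/2 knockout cells, by -1.96. ITGA2B, the alpha chain of the platelet fibrinogen receptor, was called lower in all 4 knockout lines, at 3.08 CPM in wild-type and 0.81 to 1.64 CPM in knockout cells. ITGA7, a laminin-binding chain best known from muscle, was called higher in AGO1/2/3 knockout cells by 0.51 at an adjusted p of 0.0448, and the upward calls of this list numbered 1 or 2 when single samples were left out. ITGB3, another partner of ITGAV, and ITGB7, a chain of leukocyte integrins, are named after their values were seen, since their means were under 1 CPM. ITGB3 was at 0.21 ± 0.11 CPM in wild-type, 0.87 ± 0.34 in AGO1/2 knockout and 2.81 ± 0.22 CPM in AGO1/2/3 knockout cells (log2 fold change 3.74 ± 0.39, adjusted p = 2.17e-06). ITGB7 was called lower in the AGO1, AGO2 and AGO1/2/3 lines, by -1.75, -1.84 and -2.29, on a wild-type level of 0.57 ± 0.13 CPM. In AGO2 knockout cells ITGAE, a partner of beta 7, was called higher, by 0.63, and ITGAX, ITGA9 and ITGA10 were called lower, by -0.84, -1.08 and -0.79. ITGA10 was lower in AGO1 knockout cells too, by -1.03.

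Among laminins, type IV collagens and other ligands of the basement membrane, 17 of 21 listed genes were tested. Upward calls numbered 5 and downward calls 2 in AGO1/2/3 knockout cells, against 0 upward and 9 downward in AGO2 knockout cells, where 8.55% and 10.8% of all genes were called. For AGO1/2/3 knockout, where 20.3% and 19.8% of all genes were called, the downward calls numbered 0 without its replicate 3, 1 without its replicate 1 or 2 and 4 without wild-type replicate 1. In the AGO2 line they numbered 5 without its replicate 2. HSPG2, the proteoglycan perlecan, was at 103 ± 20.2 CPM in wild-type cells, 47.6 CPM in AGO2 knockout cells and 356 ± 40.8 CPM in AGO1/2/3 knockout cells (log2 fold change 1.79, adjusted p = 8.05e-05, same test). LAMB1, a laminin beta chain, and COL4A4, a type IV collagen chain, rose by 0.82 and 0.93 on the log2 scale in AGO1/2/3 knockout cells.

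Of 14 tested ligands among RGD proteins, fibrillar collagens and carriers of latent TGF-beta, 4 gave upward calls and 1 a downward call in AGO1/2/3 knockout cells, beside the same shares of all genes, while AGO1/2 knockout cells gave 0 upward and 3 downward calls, where 8.37% of all genes were called higher and 8.35% lower. FN1, the fibronectin that ITGA5 and ITGAV dimers bind, rose from 15.1 ± 0.48 to 91.2 ± 9.33 CPM (log2 fold change 2.59 ± 0.16, adjusted p = 9.74e-09, same test). CCN2, a matricellular protein, was higher by 1.83, at 31.3 ± 7.66 against an uneven 8.80 ± 5.85 CPM. LTBP1, which tethers latent TGF-beta to the matrix, was called lower, at 2.85 against 9.94 CPM.

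Other listed genes act on the cell side, where they regulate the activation of integrins or link them to actin. AGO1/2/3 knockout cells gave 15 upward and 4 downward calls among 26 tested, with a median of 0.50, and AGO1/2 knockout cells gave 10 upward and 3 downward calls. AGO2 knockout cells gave 0 upward and 7 downward calls, the latter 4 without AGO2 knockout replicate 3. All genes tested were called higher and lower in shares of 20.3% and 19.8%, 8.37% and 8.35%, and 8.55% and 10.8% in these lines, in that order. Without the gene on chromosome 8, the AGO1/2/3 line gave 15 upward and 3 downward calls of 25. The AGO1/2 line then gave 10 and 2. FERMT2 (kindlin-2, which binds beta tails) rose from 36.2 to 109.5 CPM, PARVA (a parvin in the complex with integrin-linked kinase) from 38.0 to 141 CPM, and LIMS2 (a PINCH protein of the same complex) from 2.02 to 10.4 CPM in AGO1/2/3 knockout cells.

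Of 12 genes for hemidesmosomes and membrane partners of integrins, AGO1/2/3 knockout cells gave 7 upward and 2 downward calls, and 6 and 2 of 11 without the gene on chromosome 8, beside 20.3% and 19.8% of all genes. DST, which encodes a plakin of hemidesmosomes, rose from 785 ± 36.6 to 1580.1 ± 34.9 CPM. PLEC and COL17A1 of this list are named after their values were seen. PLEC, the gene of this list on chromosome 8, was called higher in AGO1/2/3 knockout cells, by 0.80. COL17A1 was not called there, at 0.28 (adjusted p = 0.403, edgeR quasi-likelihood test), and was called higher in AGO1/2 knockout cells, by 2.35. CD82, a tetraspanin, rose from 4.27 to 9.55 CPM. SLC3A2, a membrane partner of beta 1, was called lower, at 83.7 ± 4.44 against 235 ± 132 CPM (SD, n = 3), so its wild-type samples were uneven. Of 15 genes of focal adhesion kinase and SRC signalling, 6 were called higher and 2 lower, beside the same 20.3% and 19.8%. TGFB1I1, a paxillin relative, rose from 5.19 to 18.8 CPM. The kinases FYN and PTK2B were called lower, at 4.05 ± 0.29 against 19.3 ± 9.41 CPM and at 4.53 ± 0.07 against 13.2 ± 2.08 CPM. PTK2B lies on chromosome 8, and without the chromosome 8 genes the list counted 6 higher and 1 lower of 13. Such counts are given because earlier results of these data showed lower RNA from its long arm (8q) in the AGO1/2 and AGO1/2/3 lines. At the far end of that arm, from 140 Mb on, 93 genes had median log2 fold changes of -0.68 and -0.78. The lists were split by whole chromosome and not by arm, so their counts do not place PTK2B in that region. None of the 10 integrin genes lies on chromosome 8.

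For the 3 members with the widest range of line means, the genes with the most similar pattern were found by the root mean square difference of log2 CPM over the 15 samples, each centred on its wild-type mean. ITGB8 was nearest to GLI2, a transcription factor of the Hedgehog pathway (0.33), and TCN2, a vitamin B12 carrier (0.38), where the median over all genes was 1.44. ITGB4 was nearest to HSPG2 (0.31) and KIAA1549L (0.40), with a median of 1.27. ITGA2, which spanned 2.13 on the log2 scale, was nearest to ZNF516-AS1 (0.27) and FHIT (0.31), with a median of 1.25. The nearest genes are the smallest distances among all genes tested and so lie below the median by construction. ZNF516-AS1 and KIAA1549L were low, with means of 0.97 and 1.43 CPM. ZNF516-AS1 is antisense to another gene, and whether reads were counted by strand is not given in the sources used here.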

How the data were processed

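Total RNA depleted of ribosomal RNA was sequenced in pairs from stranded libraries of 15 cultures. The authors aligned reads to hg38 with STAR (2.5.3a in the submitters' processing notes), quantified them with Salmon (0.11.0 there) and deposited estimated counts per gene, not normalized for depth. The paper gives other versions of both tools, and another RNA extraction than the labels.

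The deposited estimated counts were rounded to integers, filtered with filterByExpr and scaled by TMM, and 1 mean per line was fitted to all 15 samples with edgeR 4.0.16 in R 4.3.3. Lines were compared by edgeR's quasi-likelihood test, Benjamini-Hochberg adjusted over all 22842 genes tested and called at 0.05. The residual degrees of freedom were 10 and the biological coefficient of variation 0.152. The 95% intervals were built from the standard error and a t distribution with these degrees of freedom. They are not part of the quasi-likelihood test and need not match its p-values. Ratios used a prior count of 2 and exact permutation tests in Python 3.11.15 (numpy 2.4.6, pandas 2.3.3, scipy 1.17.1). Symbols and positions are those of GENCODE v44, which holds 57167 of the 57875 identifiers. No pair of the 105 file pairs held identical values. Sampling depth affects ITGB6 most.

 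The members and gene lists were chosen with earlier results of these data known. Named genes are the 10 members, other subunits called in any comparison with a mean of at least 1 CPM, and the up to 3 largest changes in AGO1/2/3 knockout cells in each list, with the same minimum. The AGO genes are named as a check of the labels, and the 2 nearest genes for each of the 3 members with the widest range. Alternatives were DESeq2 1.42.0 (Wald test, and its size factors in the edgeR fit), total counts only, no filter, at least 10 counts in every sample, the replicate block, only the samples compared, a 2-fold minimum, a prior count of 0.5, merged exon lengths, lists without chromosome 8 and each sample left out. The 8 eCLIP samples were not analysed here.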

Additional observations from a re-analysis of the deposited data

Results flagged for a closer look

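For 7 of the 10 integrin genes the change with AGO1 loss differed between cells with AGO2 and cells without it, by the interaction term of the edgeR quasi-likelihood fit with Benjamini-Hochberg adjustment. Over all genes tested, 11.5% had a positive and 8.26% a negative interaction term past the same threshold. On the log2 scale the difference was 3.67 for ITGB4, 2.39 for ITGB8, 1.89 for ITGA3, 1.70 for ITGB6, 1.15 for ITGA5, 1.03 for ITGA6 and 0.43 for ITGAV. ITGB6 rests on 4 to 34 counts per sample, ITGA3 on a wild-type group in which replicate 2 stood apart, and the call of ITGAV was lost under 14 of 22 settings. All 7 differences include the AGO2 knockout files, which were made in another quantification mode.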

How the results depend on the processing

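Over the 10 genes, the 6 comparisons and the alternative settings, 1237 values kept direction and call, 34 lost the call, 25 gained it and 18 changed sign, and for none of these was the cause tested. The 8 calls in AGO1/2/3 knockout cells held in all of them, save that 4 (3 higher, 1 lower) also passed 2-fold, as did 2 of the 5 against AGO1/2 knockout cells. The count in AGO1 knockout cells, 1, became 3 with total counts only, 4 with no filter and 3 with DESeq2's Wald test. Leaving out single samples gave 1 to 3 calls in AGO1 knockout, 1 to 5 in AGO2 knockout, 3 to 4 in AGO1/2 knockout and 3 to 5 in AGO1/2/3 against AGO1/2 knockout cells, and 6 to 8 for the interaction.

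Same-numbered samples did not deviate together on average (mean correlation -0.011 over 30 pairs, from -0.394 to 0.486). Differently numbered samples gave a mean of 0.006 over 60 pairs, from -0.553 to 0.489. The numbers thus gave no common pairing over the lines, and whether some cultures of different lines shared a batch was not tested. With the replicate block there were 3 calls for AGO1 knockout, 4 for AGO2 knockout, 3 for AGO1/2 knockout, 8 for AGO1/2/3 knockout, 5 between the last pair of lines and 7 for the interaction, and ITGB1 in AGO1/2 knockout cells turned to 0.008.

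With total counts only, the median of all genes moved to -0.141 in AGO2 knockout, -0.15 in AGO1/2/3 knockout and 0.172 for the interaction, and called genes numbered 511 higher and 1985 lower in AGO1 knockout (725 and 1257 with TMM), 733 and 3593 in AGO2 knockout (1952 and 2456), 1394 and 2597 in AGO1/2 knockout (1913 and 1907), 3459 and 5962 in AGO1/2/3 knockout cells (4644 and 4522) and 3467 and 1228 for the interaction (2618 and 1887). In AGO1 knockout cells ITGAV then stood at -0.004 and ITGB5 at -0.064.

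Leaving out single samples, values that did not pass ran across 0 for ITGA2 (-0.132 to 0.391), ITGB1 (-0.219 to 0.133) and ITGB5 (-0.179 to 0.201) in AGO1 knockout cells, ITGB8 in AGO2 knockout (-0.011 to 0.43), ITGB1 in AGO1/2 knockout (-0.143 to 0.209), ITGA3 in AGO1/2/3 knockout (-0.53 to 0.424), ITGB4 between AGO1/2/3 and AGO1/2 knockout (-0.36 to 0.028) and the interaction of ITGA2 (-0.493 to 0.029). ITGB6 was not tested with at least 10 counts in every sample. At 4 to 34 counts its differences were the least resolved.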
